A study of Mus musculus with 6 samples.

Results

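Imprinted genes, which are expressed mainly or only from the copy inherited from one parent, were followed in skin and wound stromal cells sorted from SMA-GFP transgenic mice. Of 52 listed mouse imprinted genes, 49 had a row in the authors' table of 19267 genes, matched by Entrez gene identifier. Their probes were read in the scanner files of all 6 arrays. Skin cells had low GFP (SMA-GFP+) and came from the dermis, where the labels call them fibroblast-like. Wound cells had high GFP (SMA-GFP+++) and were taken 7 days after injury, and the labels call them myofibroblasts, the contractile cells of healing tissue. Both groups came from mice with the same transgene and were sorted as negative for CD45 (white blood cells) and CD31 (endothelial cells). Strain, age, sex and the number of animals per array are not given in the sources used here, nor is it said whether arrays of 1 group held separate animals, so the p-values measure the spread between these samples only. Site, injury and GFP level differed together between the groups and cannot be told apart. Each group had 3 arrays, replicates 1 and 2 on array design 026655 and 1 array, called replicate 3 only as a name, on design 028005.

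Imprinting is set by DNA methylation placed in egg or sperm and kept at imprinting control regions after fertilisation. Most imprinted genes sit in clusters under a shared control region. Many act on fetal growth. Paternally expressed genes such as Igf2 tend to promote it, and maternally expressed genes such as H19, Igf2r, Cdkn1c and Grb10 tend to restrain it. Several are high in fetal mesenchyme, fall after birth and are studied in muscle, adipose and skin repair. The arrays measured RNA without telling the parental alleles apart, so every value below is the sum of both copies. In sorted bulk samples, fewer cells that express a gene and less RNA per cell cannot be told apart.

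Several of these genes also carry microRNAs, whose sequences are shown because their host transcripts were among those that rose. The sequences are RefSeq entries on build GRCm38.p6, with the seed (bases 2 to 8) in capitals. The arrays measured the host RNAs and not the microRNAs. H19 holds miR-675 (chr7:142577078-142577133, minus strand), Igf2 holds miR-483 (chr7:142654932-142654989, minus strand) and Mest holds miR-335 (chr6:30741314-30741375, plus strand).
miR-675-5p: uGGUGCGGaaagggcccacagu
miR-675-3p: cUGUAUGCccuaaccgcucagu
miR-483-5p: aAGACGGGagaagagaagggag
miR-483-3p: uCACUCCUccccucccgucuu
miR-335-5p: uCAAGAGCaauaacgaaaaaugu
miR-335-3p: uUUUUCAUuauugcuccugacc
None of these 6 seeds is shared with another of them. The Dlk1-Dio3 span on chromosome 12 is far richer, with 58 hairpins and 108 mature microRNAs in the RefSeq table, which carry 99 distinct seeds. Of the hairpins, 10 lie inside Mirg, 3 inside Rian, 15 within the span of Rtl1 and 1 inside Meg3. No seed was shared by more than 2 microRNAs of the span. Within Mirg, miR-453 (chr12:109735669-109735692, plus strand) and miR-496a-5p (chr12:109739132-109739152, plus strand) share the seed GGUUGCC.
miR-453: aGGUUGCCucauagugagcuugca
miR-496a-5p: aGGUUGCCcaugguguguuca

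Of the 49 genes with a row, 46 were tested, because in skin or in wound cells their brightest probe was well above background on all 3 arrays. The test was limma's moderated linear model over all 16741 genes that passed this filter, with the array design as a term and a call at a Benjamini-Hochberg adjusted p under 0.05. Among the 46, 16 rose and 10 fell in wound cells, so 56.5% were called, against 34.1% of all genes tested. The share called higher was 34.8%, against 18.5% of all genes, and the share called lower was 21.7%, against 15.6%. Of the 16, 11 genes (23.9% of those tested) were called higher by 4-fold or more, against 3.91% of all genes. The median difference was 0.22 on the log2 scale (0.04 over all genes), and the median absolute difference was 0.84 (0.42 over all genes). Of the 46 genes, 40 were well above background on all 6 arrays. When the test was limited to genes measured on every array, 5031 of all 15005 such genes were called in either direction. Of the 40 imprinted genes in that test, 16 were called higher and 5 lower. These 16 hold Zim1, not called otherwise, in place of Rasgrf1, which was not measured on every array. These genes passed the filter partly through the group in which they were high, and these shares are a description with no test of the list.

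**Figure D1:**
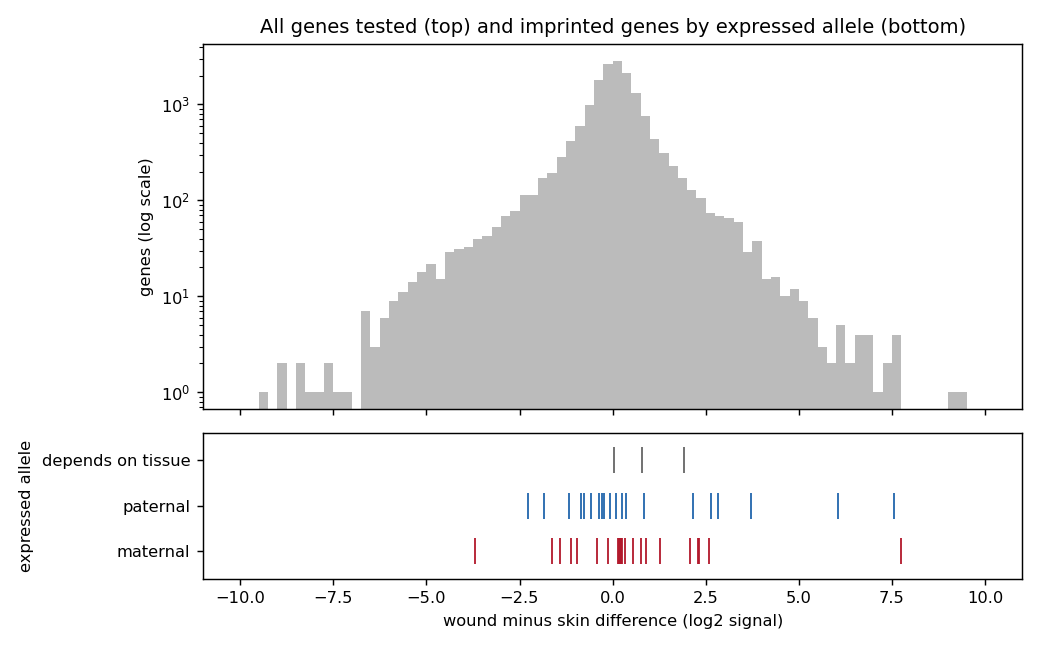
The upper panel counts all genes tested by their wound minus skin difference (log2 signal, x axis; number of genes, log scale, y axis), and the lower panel marks the 46 imprinted genes, 1 line per gene, by the parental allele they are known to be expressed from. H19, Dlk1 and Mest lie above 6 on the log2 scale, where few of all genes lie, and maternal and paternal genes are spread over both sides of 0.

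Between 64.4% and 72.6% of spots were well above background on each array, none was saturated (0 on all 6), and arrays correlated at 0.97 or more within groups and at 0.901 to 0.923 between them. Acta2, the gene named by the reporter, differed by 4.7 (SE 0.16, adjusted p = 5.2e-05), in the direction of the sort. All 8 fibroblast markers were above background on all arrays of both groups, and 2 of them were called lower (Pdgfra at -1.3 and Fbln1 at -1.2 on the log2 scale) while 0 rose. Mural cell markers moved with the risen genes, as 7 of 10 rose, 0 fell and the sum of their linear levels was 33.6 to 66.9 in skin and 88.8 to 235 in wound cells. Keratinocyte markers moved with the lower genes, as 8 of 9 fell and their sum was 17.7 to 39.2 in skin and 4.2 to 10.1 in wound cells. Of 12 skeletal muscle markers 1 rose and 2 fell, and Ckm and Myf5 were above background on no array. Of 6 Schwann cell markers 4 fell and 0 rose (66.7% called), and their sums overlapped (2.87 to 9.23 in skin and 1.52 to 3.82 in wound cells). Of 4 tested adipocyte markers, Fabp4 rose (2.76 on the log2 scale) and 0 fell (25% called). The sum of all 6 adipocyte markers was 4.85 to 13.4 in skin and 13.8 to 32.9 in wound cells. The part of these cell types in the results was not tested. Of the sorted-out types, leukocyte marker sums overlapped (23.9 to 120 and 23.5 to 105), as did endothelial ones (3.69 to 15.9 and 5.19 to 12.3). Ptprc was above background on 3 skin arrays and 1 wound array and Pecam1 on all 6. Among 11 tested leukocyte markers, S100a9 rose and Csf1r and S100a8 fell (27.3% called). Among 7 tested endothelial markers, Emcn and Tek rose and 0 fell (28.6% called, against 34.1% of all genes).

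The 3 genes with the largest differences among the 46 were H19, a maternally expressed long noncoding RNA, Dlk1, a paternally expressed membrane protein of preadipocytes and fetal mesenchyme, and Mest, a paternally expressed hydrolase of fetal mesoderm. Levels are given as log2 of the signal over the array's 75th percentile, in the order of replicates 1, 2 and 3. H19 read 0.28, -1.19 and 2.11 on the skin arrays and 7.9, 7.73 and 8.75 on the wound arrays. Dlk1 read -1.51, -2.69 and -0.77 on the skin arrays and 5.85, 5.67 and 6.14 on the wound arrays. Mest read -1.2, -1.36 and 0.45 on the skin arrays and 5.14, 4.8 and 6.09 on the wound arrays. All 3 genes were far higher on the wound arrays, and no wound array overlapped a skin array. The wound minus skin difference was 7.73 (SE 0.48, n = 3 arrays per group, adjusted p = 0.000143) for H19, 7.54 (SE 0.36, adjusted p = 8.41e-05) for Dlk1 and 6.05 (SE 0.2, adjusted p = 5.2e-05) for Mest. Among skin arrays replicate 2 was the lowest for all 3 genes. The wound arrays lay within 7.73 to 8.75 for H19 and within 5.67 to 6.14 for Dlk1, a narrower range than the skin arrays.

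**Figure D2:**
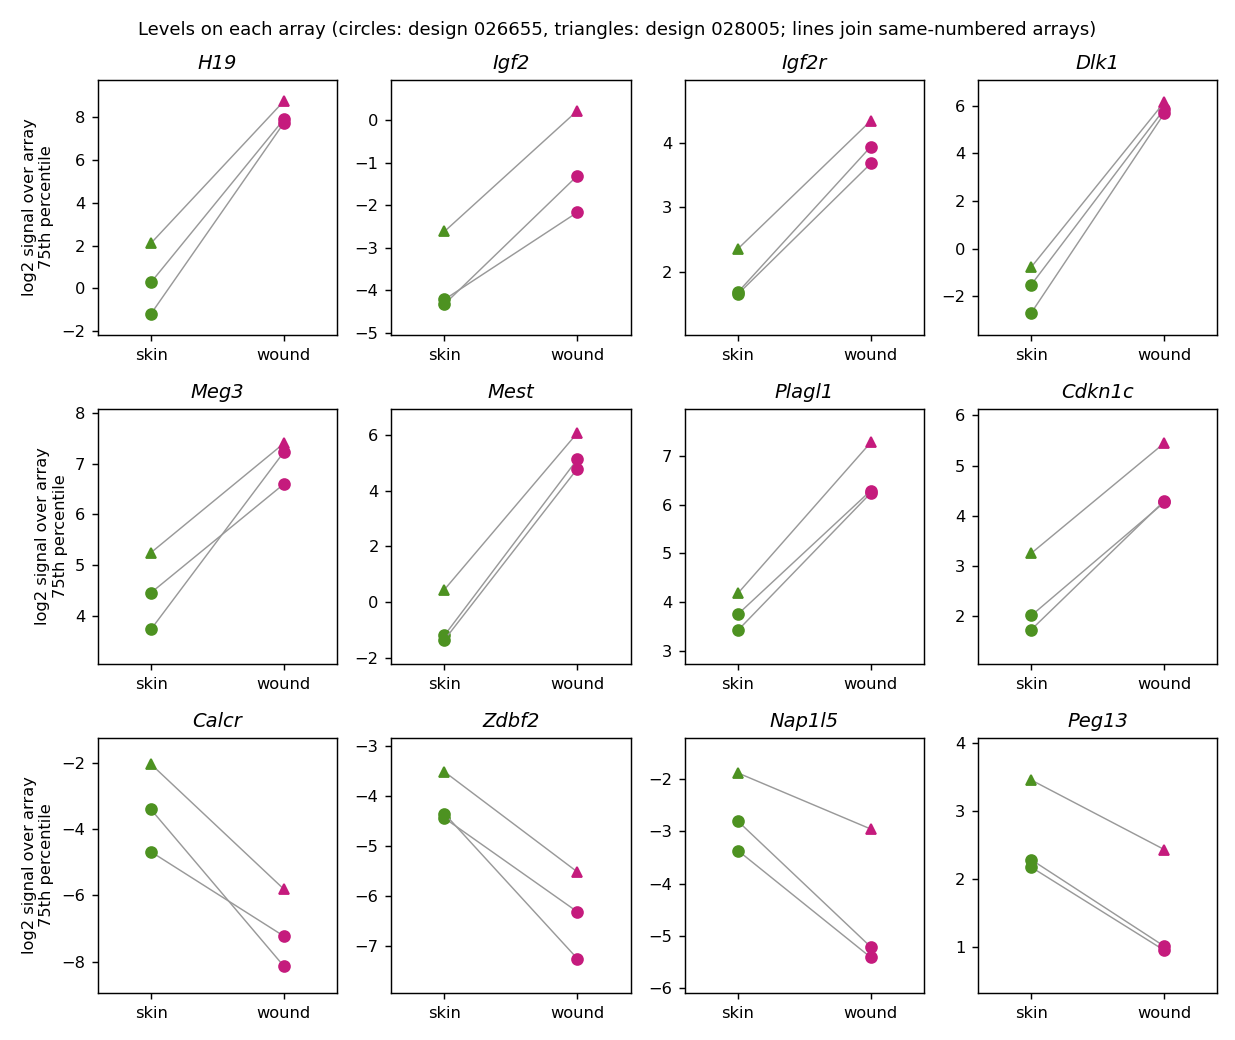
Levels of 12 imprinted genes on each array (log2 signal over the array's 75th percentile, y axis) in skin (green) and wound cells (magenta), with circles for design 026655, triangles for design 028005 and a line joining arrays of the same number, which marks no shared animal. In the upper 2 rows every line rises and in the lowest row every line falls.

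H19 and Igf2 share enhancers and 1 control region, and are usually expressed from opposite alleles. Igf2 encodes the fetal growth factor IGF2. Igf2 read -4.33, -4.22 and -2.62 on the skin arrays and -1.31, -2.17 and 0.22 on the wound arrays, a dim signal in skin. Its groups did not overlap. The Igf2 difference was 2.64 (SE 0.25, adjusted p = 0.000566), and 2.54 on design 026655 and 2.84 on design 028005. H19 and Igf2 thus both rose, the maternal noncoding RNA by 7.73 and the paternal growth factor by 2.64 on the log2 scale. Igf2r, the maternally expressed receptor that takes up IGF2 for breakdown, read 1.66, 1.69 and 2.36 on the skin arrays and 3.68, 3.94 and 4.34 on the wound arrays. Its difference of 2.08 (SE 0.15, adjusted p = 0.000251) was nearly the same on both designs (2.13 on design 026655 and 1.99 on design 028005), and its groups did not overlap. Airn, the noncoding RNA that silences the paternal Igf2r copy, gave 0.29 (SE 0.36, adjusted p = 0.572) and did not pass the test. Slc22a3, its neighbour, had no row in the authors' table, and its probes were well above background on no array.

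The size of the H19 difference depends on the probe. Of 2 H19 probes, the brighter gave 7.73 and the dimmer 1.92 (SE 0.21, adjusted p = 0.00106). The dimmer probe read -5.71, -6.34 and -5.15 in skin, where it was well above background on 1 of 3 arrays, and -4.19, -4.02 and -3.21 in wound cells, where it was so on 3 of 3. The mean of both probes gave 4.82, and a difference of 4.77 was found in the authors' deposited table. The direction was the same throughout, and the cause of the gap between the probes was not tested.

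In the Dlk1-Dio3 cluster on chromosome 12, genes of both parental alleles rose together. Meg3 and Mirg are maternally expressed noncoding RNAs, and Dlk1 and Dio3 are paternally expressed coding genes. Meg3 read 4.46, 3.74 and 5.25 on the skin arrays and 6.6, 7.23 and 7.4 on the wound arrays. Mirg, the host of 10 of the microRNA hairpins, read 2.07, 1.46 and 2.33 on the skin arrays and 3.9, 4.33 and 4.54 on the wound arrays. Both were bright in skin already, and every wound array lay above every skin array. The difference was 2.59 (SE 0.29, adjusted p = 0.00108) for Meg3 and 2.3 (SE 0.22, adjusted p = 0.000612) for Mirg, both far smaller than that of Dlk1 (7.54). Of 3 Meg3 probes, 1 gave 0.57 (SE 0.29, adjusted p = 0.188) and was not called, and the 3 Mirg probes gave 0.71 to 2.3, all called. Dio3, the enzyme that inactivates thyroid hormone, read -3.92, -3.82 and -2.7 on the skin arrays and -2.49, -2.94 and -2.5 on the wound arrays. Its groups overlapped across designs, its difference was only 0.84 (SE 0.25, adjusted p = 0.044), and on design 028005 it was 0.2. The Dio3 call was lost when any 1 of the 4 arrays of design 026655 was left out (adjusted p 0.0901 to 0.148). Rtl1, a retrotransposon-derived gene of the placenta, was well above background on 1 skin and 2 wound arrays and was not tested, and Rian had no named probe.

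For 4 of the risen genes, the 250 bases before a RefSeq transcript start are printed with every CpG, the dinucleotide that carries imprinting methylation, in capitals. Methylation itself was not measured. They are RefSeq windows on build GRCm38.p6, all on the plus strand; those of Dlk1 and Mest lie within the gene's full span, whose outermost start is further upstream, and the window with the most CpG was taken where a gene had several (the first of equal ones for Mest).
Dlk1 (chr12:109452573-109452822): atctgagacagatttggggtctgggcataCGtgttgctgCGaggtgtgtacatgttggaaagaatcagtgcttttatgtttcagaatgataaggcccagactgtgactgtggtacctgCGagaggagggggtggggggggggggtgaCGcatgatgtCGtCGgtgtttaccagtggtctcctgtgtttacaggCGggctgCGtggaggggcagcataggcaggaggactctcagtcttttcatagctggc
Meg3 (chr12:109540746-109540995): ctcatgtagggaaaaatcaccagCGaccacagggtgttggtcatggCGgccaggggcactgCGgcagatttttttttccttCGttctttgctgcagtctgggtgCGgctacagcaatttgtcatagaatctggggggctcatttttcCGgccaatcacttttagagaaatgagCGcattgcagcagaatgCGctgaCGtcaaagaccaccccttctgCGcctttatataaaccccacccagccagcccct
Mest (chr6:30737800-30738049): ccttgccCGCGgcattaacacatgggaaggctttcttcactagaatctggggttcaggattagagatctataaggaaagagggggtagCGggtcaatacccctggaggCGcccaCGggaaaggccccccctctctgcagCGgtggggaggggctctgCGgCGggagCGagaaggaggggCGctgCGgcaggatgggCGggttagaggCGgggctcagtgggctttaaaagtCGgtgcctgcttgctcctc
Plagl1 (chr10:13090582-13090831): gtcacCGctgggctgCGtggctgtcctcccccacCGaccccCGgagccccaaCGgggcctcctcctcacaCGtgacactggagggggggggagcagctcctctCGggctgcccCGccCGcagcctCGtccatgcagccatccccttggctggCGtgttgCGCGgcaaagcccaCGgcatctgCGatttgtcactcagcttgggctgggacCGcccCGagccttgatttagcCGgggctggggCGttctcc
The CpG count was 8 for Dlk1, 10 for Meg3, 14 for Mest and 19 for Plagl1, against a median of 6 and an upper quartile of 16 over 32851 windows of that length. Each of these windows held more CpG than the median window, and only that of Plagl1 passed the upper quartile. The choice of window raised the counts of Meg3 and Mest, whose other windows held as few as 0 and 7 CpG. Over all their windows, the 14 called-higher genes with an entry had a median of 14 CpG, the 9 called-lower genes 8 and the 17 genes tested and not called 14. Motifs were searched on both strands: the TATA box TATAAA, the SP1 core GGGCGG, the AP-1 motif TGANTCA, a core of the CTCF motif and the CArG box, which serum response factor binds. The Meg3 window held TATAAA 2 times, once on each strand and overlapping, a motif found in 12.4% of all windows. GGGCGG, found in 32.7%, occurred in the Mest and Plagl1 windows 1 and 2 times. None of these 4 windows held TGANTCA (6.75% of windows), the CTCF core (0.0335%) or a CArG box (1.47%).

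Among other regulators of growth, Plagl1, a paternally expressed zinc finger factor, Cdkn1c, the maternally expressed cell cycle inhibitor p57, and Grb10, an adaptor that restrains insulin and IGF receptors, all rose. Plagl1 read 3.42, 3.75 and 4.18 on the skin arrays and 6.24, 6.29 and 7.28 on the wound arrays. Cdkn1c read 2.02, 1.74 and 3.26 on the skin arrays and 4.27, 4.3 and 5.45 on the wound arrays. Neither gene's groups overlapped. The differences were 2.82 (SE 0.18, adjusted p = 0.000143) for Plagl1 and 2.33 (SE 0.16, adjusted p = 0.000187) for Cdkn1c. The 4 Plagl1 probes gave 0.89 to 2.9, all called, with 2.12 for their mean and 2.06 in the authors' deposited table. Grb10 read -0.51, -0.61 and 1.31 on the skin arrays and 1.38, 2.12 and 2.41 on the wound arrays, and rose by 1.91 (SE 0.32, adjusted p = 0.00523), with 2.31 on design 026655 and 1.1 on design 028005. Ddc, the neighbour of Grb10 that makes dopamine and serotonin and is known to be imprinted in the heart, read -4.99, -4.86 and -3.91 on the skin arrays and -1.26, -1.35 and 0.03 on the wound arrays. The Ddc difference was 3.72 (SE 0.15, adjusted p = 6.68e-05), with 3.62 on design 026655 and 3.93 on design 028005, and its groups did not overlap. Normexp background correction, which shrinks differences of dim probes, gave 2.08 for Ddc and 1.72 for Igf2, and the mean of its probes gave 2.64 for Ddc.

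Rasgrf1, a paternally expressed exchange factor for Ras, read -7.07, -5.14 and -4.87 on the skin arrays and -4.19, -3.89 and -2.53 on the wound arrays. It was dim, being well above background on 2 of 3 skin arrays, and its groups did not overlap. Its difference was 2.16 (SE 0.48, adjusted p = 0.0157), but the adjusted p was 0.0574 on design 026655 alone and 0.0562 without wound replicate 2, and with the mean of its probes Rasgrf1 gave 1.13 (adjusted p = 0.13). Gnas and H13 make several transcripts, and their values below are those of the brightest probe. Gnas, which encodes the stimulatory G protein alpha subunit, read 6, 5.84 and 6.6 on the skin arrays and 6.77, 6.42 and 7.59 on the wound arrays and differed by 0.78 (SE 0.17, adjusted p = 0.0162), with overlap between skin of design 028005 and a wound array of design 026655. H13, a signal peptide peptidase gene, read 3.44, 3.41 and 4.55 on the skin arrays and 4.51, 4.28 and 5.32 on the wound arrays and differed by 0.9 (SE 0.15, adjusted p = 0.00545). Pon3, a paraoxonase, read 1.53, 1.31 and 2.26 on the skin arrays and 1.98, 1.87 and 2.89 on the wound arrays and differed by 0.55 (SE 0.15, adjusted p = 0.0329). Within each design the wound arrays lay above the skin arrays for Gnas, H13 and Pon3. Gnas was no longer called without skin replicate 2 (adjusted p = 0.0541), without wound replicate 1 (adjusted p = 0.0601) or without the 028005 pair (adjusted p = 0.0725). Pon3 was no longer called without any 1 of the 6 arrays (adjusted p 0.0516 to 0.119).

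Probes of Gnas also differed widely. Of its 4 probes, the bright one that stands for the gene gave 0.78, while another gave 3.94 (SE 0.35, adjusted p = 0.000526) and read -4.21, -4.48 and -2.54 in skin and -0.33, 0.44 and 0.48 in wound cells. Another Gnas probe was well above background on no skin array and all 3 wound arrays, at least 8.93-fold higher in wound cells, and the last gave 0.01. With the mean of its probes Gnas gave 2.45 (adjusted p = 0.000121), and in the authors' deposited table it differed by 2.02. Such a bound divides the bright group's mean by the dimmest signal still counted as above background, or by the probe's own where that is higher. Asb4, a maternally expressed ankyrin repeat gene, was read by a different probe on each design, and its 1.26 (SE 0.45) did not pass the test (adjusted p = 0.0789). Tested each on both designs, its 2 probes gave 0.54 and 3.88 (SE 0.46, adjusted p = 0.00147). Asb4 was called higher in 5 alternatives, among them the mean of its probes (2.21, adjusted p = 0.000784) and the same probe on both designs (3.88, adjusted p = 0.00127). The others were normexp (1.4, adjusted p = 6.89e-05), the design as a random block (1.26, adjusted p = 0.0204) and the authors' deposited table (2.15, adjusted p = 0.000501). H13 had 2 probes called higher, 1 called lower (-0.54) and 1 not called (0.48), and their mean was not called (0.42, adjusted p = 0.0673). Of 19 imprinted genes with more than 1 tested probe, 7 (H19, Dlk1, Mest, Mirg, Plagl1, Nap1l5 and Snrpn) had every tested probe called in 1 direction. Over single probes, 28.8% of all 25919 tested were called in either direction. That is a share of probes, and the like share of all genes with several probes was not computed.

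**Figure D3:**
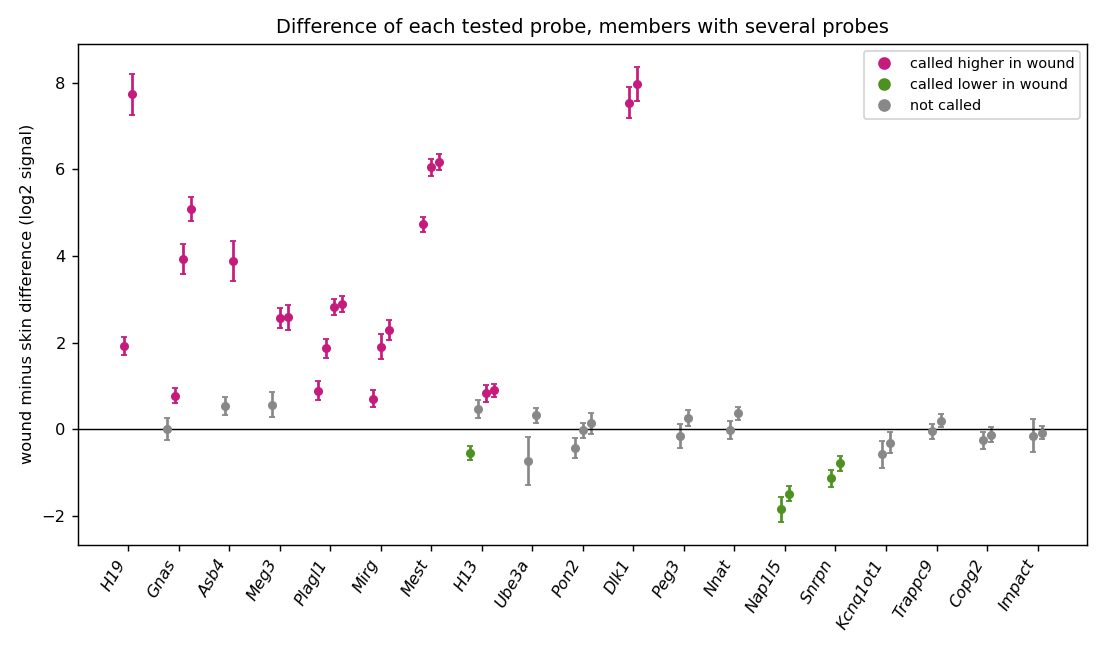
Wound minus skin difference of each tested probe (log2 signal ± SE, y axis) of the 19 imprinted genes with more than 1 tested probe, ordered by the spread between their probes, in magenta where called higher, green where called lower and grey where not called. H19, Gnas and Asb4 have the widest spread, and H13 alone has called probes on both sides of 0.

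Of the 10 genes that fell, Calcr, the calcitonin receptor, belongs to the Peg10-Sgce cluster and is known to be maternally expressed in brain. Calcr read -3.4, -4.68 and -2.03 on the skin arrays and -8.14, -7.23 and -5.81 on the wound arrays. It was well above background on all 3 skin arrays and on no wound array, so it was at least 3.95-fold higher in skin with a measured difference of -3.69 (SE 0.39, adjusted p = 0.000873). Zdbf2, a paternally expressed zinc finger gene, read -4.44, -4.35 and -3.51 on the skin arrays and -6.32, -7.26 and -5.52 on the wound arrays and was at least 2.38-fold higher in skin with a measured difference of -2.27 (SE 0.27, adjusted p = 0.00132). Gatm, which makes the creatine precursor, read -5.11, -4.8 and -2.24 on the skin arrays and -6.66, -5.87 and -4.53 on the wound arrays and was at least 2.4-fold higher in skin with a measured difference of -1.64 (SE 0.3, adjusted p = 0.00797). Phlda2, a maternally expressed restraint on placental growth, read -5.27, -5.14 and -4.65 on the skin arrays and -6.18, -6.8 and -6.27 on the wound arrays and was at least 1.26-fold higher in skin with a measured difference of -1.4 (SE 0.21, adjusted p = 0.00354). These 4 genes were well above background on no wound array, and within each design their skin arrays lay above their wound arrays. With normexp background correction, these differences shrank to -0.98 for Calcr and -0.48 for Zdbf2, and Gatm (-0.51, adjusted p = 0.0845) and Phlda2 (-0.23, adjusted p = 0.273) were no longer called.

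The other 6 genes that fell were well above background on at least 2 arrays of each group. Nap1l5, a paternally expressed retrogene related to nucleosome assembly proteins, read -3.37, -2.81 and -1.89 on the skin arrays and -5.41, -5.21 and -2.96 on the wound arrays and differed by -1.84 (SE 0.29, adjusted p = 0.00433), or by -0.73 with normexp. Peg13, a paternally expressed noncoding RNA, read 2.17, 2.28 and 3.45 on the skin arrays and 0.95, 1.01 and 2.43 on the wound arrays and differed by -1.17 (SE 0.14, adjusted p = 0.00158), with -1.25 on design 026655 and -1.03 on design 028005. Slc22a18, a maternally expressed transporter, read -0.53, -0.96 and 0.79 on the skin arrays and -1.54, -1.95 and -0.58 on the wound arrays and differed by -1.12 (SE 0.21, adjusted p = 0.00791). For each of these 3 genes, the wound arrays lay below the skin arrays within each design. Ppp1r9a, which encodes neurabin, an actin-binding scaffold, read -2.16, -2.56 and -0.85 on the skin arrays and -3.65, -3.09 and -1.76 on the wound arrays and differed by -0.97 (SE 0.21, adjusted p = 0.0146). Zrsr1, a paternally expressed splicing factor retrogene, read 0.21, 0.44 and 1.35 on the skin arrays and -0.73, -0.72 and 0.94 on the wound arrays and differed by -0.84 (SE 0.19, adjusted p = 0.0168). Snrpn, which encodes a protein of the spliceosome, read -2.39, -2.06 and -1.42 on the skin arrays and -3.1, -3.05 and -2.04 on the wound arrays and differed by -0.78 (SE 0.16, adjusted p = 0.0127). These last 3 differences were under 1 on the log2 scale. The groups of all 6 genes overlapped across designs but not within one. Ppp1r9a was no longer called without skin replicate 1 (adjusted p = 0.0627), Snrpn with the mean of its probes (adjusted p = 0.0574), and Zrsr1 without any 1 of the 4 arrays of design 026655 (adjusted p 0.0525 to 0.0641). Peg13 lies in an intron of Trappc9 and Zrsr1 in an intron of Commd1, and these host genes gave 0.2 and 0.25 and were not called; the difference between host and nested gene was not tested.

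**Figure D4:**
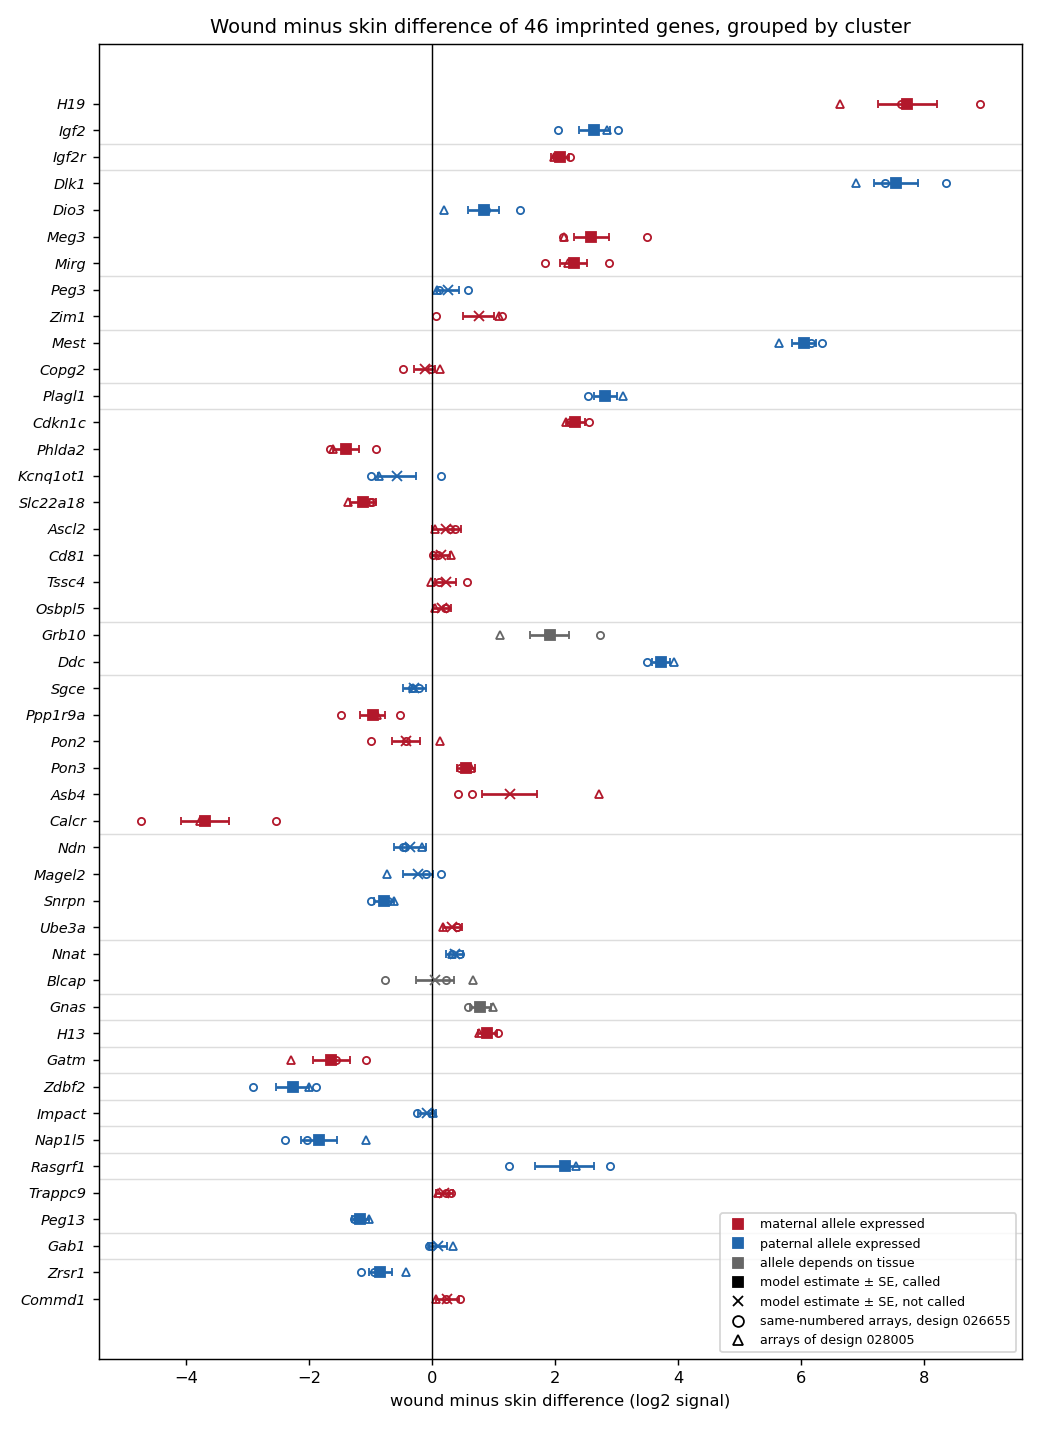
Wound minus skin difference (log2 signal, x axis) of the 46 tested imprinted genes, grouped by cluster, with filled squares (called) or crosses (not called) for the model estimate ± SE and open symbols for the differences of same-numbered arrays (the numbers only name the arrays), coloured by expressed allele. For all 26 called genes, whose calls come from these same arrays, the 3 open symbols lie on 1 side of 0. H19, Dlk1 and Mest lie at 6.05 to 7.73.

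Clusters were counted over the main list of imprinted genes only. The further imprinted genes described below were not assigned to clusters and are left out of these counts. Within the main list, all 4 tested genes of the Dlk1-Dio3 cluster were called higher, as were both genes of the pairs H19-Igf2 and Grb10-Ddc. No other cluster with more than 1 tested gene had all of them called in 1 direction. In the Peg3 and Nnat-Blcap clusters 0 genes were called. Over all genes tested, 18.5% were called higher and 15.6% lower. Of 8 tested genes of the Kcnq1ot1 cluster, Cdkn1c rose, Phlda2 and Slc22a18 fell and 5 were not called. The share called was 37.5%, near the 34.1% of all genes. Those 5 were Kcnq1ot1, the noncoding RNA that silences the cluster (-0.57), Ascl2, a trophoblast transcription factor (0.23), Cd81, a tetraspanin (0.14), Tssc4 (0.22) and Osbpl5 (0.16). Without wound replicate 2, Kcnq1ot1 was called lower (-0.94, adjusted p = 0.0119). Of 6 tested genes of the Peg10-Sgce cluster, Pon3 rose and Calcr and Ppp1r9a fell (50% called). Sgce, which encodes epsilon-sarcoglycan (-0.29), Pon2 (-0.43) and Asb4 were not called. Peg10, a retrotransposon-derived gene, was well above background on 2 skin and 2 wound arrays by its brightest probe of each design and was not tested, though 1 of its probes differed by 1.16 (SE 0.31, adjusted p = 0.0352) with 1 skin and 3 wound arrays above background. Mest rose while Copg2, which overlaps it in part, gave -0.12 and was not called; this contrast between neighbours was not tested.

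The remaining genes tested and not called had differences that ranged, with those already named, from -0.57 to 1.26 with SEs of 0.14 to 0.45, and smaller changes than such SEs resolve could not be detected. Peg3, a zinc finger factor, gave 0.26 and its neighbour Zim1 0.76 (adjusted p = 0.0591), and Zim1 was called higher in 4 alternatives, with an adjusted p of 0.0202 without wound replicate 1, 0.0278 with the design as a random block, 0.033 after quantile normalization and 0.0446 over genes measured on every array. Usp29 had no row and its probes were well above background on no array. In the Snrpn-Ube3a cluster, linked to Prader-Willi and Angelman syndromes, Ndn gave -0.36, Magel2 -0.23 and the ubiquitin ligase Ube3a 0.33, and Mkrn3 was well above background on no skin array and 1 wound array. Nnat gave 0.37, Blcap 0.04, Impact -0.08 and Gab1, an adaptor of growth factor receptors, 0.09. The signs of Peg3, Osbpl5, Magel2, Ube3a, Blcap and Gab1 turned under some settings and carry no direction.

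Grouped by the expressed allele, equal numbers of maternal and paternal genes were called in each direction. Of 23 tested maternal genes, 7 were called higher and 5 lower (52.2% called, against 34.1% of all genes). Their median difference was 0.23 on the log2 scale. Of 20 tested paternal genes, 7 were called higher and 5 lower (60% called), with a median of 0. Of 3 genes whose expressed allele depends on the tissue, Gnas and Grb10 rose and Blcap was not called. Genes imprinted in many tissues made up most calls, 14 higher and 7 lower of 31 tested (67.7% called, against 34.1% of all genes). Of 9 genes imprinted mainly in placenta, 1 was called higher and 2 lower (33.3%, near that background), and of 5 imprinted mainly in brain, 0 were called higher and 1 lower (20%). These are counts of a list chosen with results known, and no difference between the groups of genes was tested.

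Genes that set or read imprints were given as a second list, of which 26 were tested, 5 called higher and 4 lower (34.6% called, near the 34.1% of all genes), with a median difference of 0.07. Ctcfl, the testis paralogue of CTCF, differed by 2 (SE 0.29, adjusted p = 0.00323), though it was dim, being well above background on 1 of 3 skin arrays. Uhrf1, which recruits the maintenance methyltransferase to newly replicated DNA, differed by 0.99 (SE 0.24, adjusted p = 0.0205). Tet3, Dnmt3a and Tet2 were the other 3 called higher, and Tet1, Ezh2, Kdm1b and Arid4a were called lower, each by less than 1. Dnmt1, the maintenance methyltransferase, gave 0.11, Trim28, the corepressor that guards imprints, 0.13, and Ctcf, which binds the H19-Igf2 control region, -0.22, and none of the 3 was called.

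Of 16 tested partners of H19 and Igf2, 6 were called higher and 3 lower (56.2% called, against 34.1% of all genes), with a median of 0.05. Igf2bp3, a fetal RNA-binding protein that binds Igf2 mRNA, was well above background on no skin array and all 3 wound arrays, which makes wound cells at least 4.23-fold higher (adjusted p = 0.000304). Igf2bp2 differed by 1.71 (SE 0.2, adjusted p = 0.00137) and Hmga2, a fetal chromatin protein upstream of it, by 1.85 (SE 0.29, adjusted p = 0.00421). Igf1, the related growth factor, differed by 0.95 (SE 0.14, adjusted p = 0.00337), and Igf1r, the receptor that signals for both, by -0.66 (SE 0.19, adjusted p = 0.0392). Plag1, a paralogue of Plagl1 known to activate Igf2, was well above background on no wound array and at least 1.82-fold higher in skin (adjusted p = 0.000948).

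Of 27 further imprinted genes tested, 7 were called higher and 3 lower (37% called, near the 34.1% of all genes), with a median of 0.29. Those called higher included Slc38a4, an amino acid transporter (4.66, SE 0.27, adjusted p = 0.000122), Tfpi2 (2.52, SE 0.21, adjusted p = 0.00041), Tnfrsf23 (2.42, SE 0.18, adjusted p = 0.000253), Ano1 (2.4, SE 0.2, adjusted p = 0.000389) and Adam23 (1.36, SE 0.39, adjusted p = 0.0396). Klf14 differed by 2.79 (SE 0.74, adjusted p = 0.0302), though it was above background on 1 of 3 skin arrays and gave 2.16 on design 026655 and 4.03 on design 028005. Gpr1, a chemerin receptor, read 2.72, 2.38 and 3.34 in skin and -3.19, -7.3 and -4.98 in wound cells. Every wound array lay below every skin array, with a difference of -7.97 (SE 0.97, adjusted p = 0.00148), but it was above background on 1 wound array only, so the size is uncertain. Qpct (-2.61, SE 0.15, adjusted p = 0.000126) and Ampd3 (-2.12, SE 0.35, adjusted p = 0.00519) also fell.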

How the data were processed

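RNA (about 50 ng per sample, per the series' design text) was hybridised to 6 1-colour Agilent arrays. Per the file headers, spot intensities were extracted by the authors with Feature Extraction 10.7.3.1 against build mm9. The deposited scanner intensity is linear and not scaled between arrays. Per the series' design text, the log2 values of the authors' gene table were made with GeneSpring 14.5 before they were deposited. Its deposited log2 differences matched those of the scanner data averaged over each gene's probes (slopes 1, 1 and 0.973 in the 3 pairs). The correlation was 1 in pairs 1 and 2 and 0.971 in pair 3. No source used here states how probes were combined, but the values in pairs 1 and 2 follow probe means. The mean of probes and the authors' deposited table are therefore not independent checks. The design text names a human array, while the organism label is mouse and probes were named as mouse genes.

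Control and outlier spots were left out. Values were the log2 processed signal relative to each array's 75th percentile, with the brightest probe per gene and design. Probes took genes from the authors' table (27773 probes) or else by RefSeq accession; the scanner files carry no gene names. The fit was limma 3.58.1 (R 4.3.3) with the design as a fixed term (3 residual degrees of freedom, 6.25 after moderation). Simulated data of 16663 genes recovered 53 of 100 genes changed by 1 and 96 of 100 changed by 2 on the log2 scale. With either size, 14 unchanged genes were also called. As mean signals were not in the files, the normexp alternative used median signals (offset 50). Precision is limited by having 3 arrays per group. The named genes are all listed imprinted genes, with values on every array where called, and, of the other lists, those called with a difference of at least 1 (at most 6 a direction) plus Dnmt1, Uhrf1, Trim28, Ctcf, Igf1, Igf1r, Igf2bp2, Igf2bp3 and Airn whatever their value; Tet1, Tet2, Tet3, Dnmt3a, Ezh2, Kdm1b and Arid4a were named after their values were seen. The imprinted genes and all lists were chosen with earlier results of these data known. Same-numbered arrays of design 026655 correlated at 0.153 in their deviations (16663 genes); with 2 numbered pairs this does not pair them. Figures were drawn with Python 3.11.15 and matplotlib 3.10.9.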

Additional observations from a re-analysis of the deposited data

How the results depend on the processing

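Of the 26 called imprinted genes, 14 kept their call and direction under every alternative with a test, and 0 reversed under any. The 16 called higher stayed within 1.5 times that count throughout. The 10 called lower became 3 with no term for the array design and 5 when only genes above background on all 6 arrays were tested, which tests fewer genes. Without that term 1765 of all genes were called, against 5702 with it. Among genes above background on all 6 arrays, 5031 of 15005 were called. Of imprint regulators, the 5 called higher became 1 with no design term, 3 on design 026655 alone, 3 with no filter on dim probes and 2 at an adjusted p under 0.01, and 3 to 4 with 1 array left out (3 without skin replicate 1 or 3 or wound replicate 2 or 3). The 4 called lower became 0 with no design term, 2 with no filter, 0 at an adjusted p under 0.01 in limma's test, and 2 to 3 with 1 array left out (2 without wound replicate 1); the cause was not tested. In the same settings the calls over all genes were 4522 of 16741 on design 026655 alone and 4335 of 22876 with no filter. With 1 array left out, 3758 to 5027 of all genes were called. With a replicate block in place of the design term, limma called 5605 genes, and Dio3 was lost (adjusted p = 0.066) while the other 25 called genes were kept. Scaling to detected probes moved the median of all genes from 0.04 to -0.05.

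Reversals were seen only in genes not called in either setting. Blcap (0.04) was -0.27 on design 026655 alone, 0 with normexp, -0.05 with the percentile over detected probes, -0.02 in the authors' deposited table and -0.27 to 0.4 with 1 array left out. Magel2 was 0.02 and Gab1 -0.03 on design 026655 alone, which equals leaving out either replicate 3, and with 1 array left out they ranged from -0.46 to 0.02 and from -0.03 to 0.15. Ube3a was -0.2 with the mean of probes and -0.26 in the authors' deposited table, Osbpl5 -0.02 after quantile normalization and Peg3 0 in the authors' deposited table. H13 (0.42), Rasgrf1 (1.13) and Snrpn (-1.16) lost their call with the mean of probes. With normexp Rasgrf1 gave 0.57. Signal over background limits the dim genes, and the small number of arrays limits the rest.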
